A study of Mus musculus with 24 samples.

Results

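The cortex of C3H mice given phosphate-buffered saline (PBS) was compared with that of the 3 other inbred strains of the study given the same injections, SV129, FVB and C57. The 3 C3H PBS arrays were set against the equal-weight mean of the other strains' PBS group means, which rest on 9 arrays, so the comparison used 12 of the 24 arrays of the series. It was run over the 23521 probe sets, of 41034 in all, that carry 1 gene symbol in the platform annotation. Each probe set was also checked for whether all 3 C3H arrays lay above, or all below, the range of the 9 others. All values are log2 signals after RMA normalization, differences are C3H minus the others, and each error is a standard error (SE) unless another is named.

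The study modelled neuronopathic Gaucher disease with conduritol B-epoxide (CBE), which blocks glucocerebrosidase in lysosomes, and its PBS mice are the healthy controls. The groups used here were C3H PBS, SV129 PBS, FVB PBS and C57 PBS, and for a repeat in separate animals C3H CBE, SV129 CBE, FVB CBE and C57 CBE, with 3 arrays in each. All mice were males of 18 days, injected into the peritoneum from postnatal day 8 to day 18, CBE mice with 25 mg/kg per day. RNA came from a coronal slice that held the cortex. The C57 mice were of the substrain C57BL/6JOlaHsd, and no substrain is given for C3H, SV129 or FVB in the sources used here. Each strain entered as 1 set of mice, so strain cannot be told apart from litter, cage or the handling of its arrays. The p-values measure only the spread between the arrays of a group, which may be technical, since the labels number replicates and say no more of them.

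Inbred mouse strains differ by fixed alleles, and an allele that alters a promoter, a splice site or the copy number of a gene shifts that gene's RNA in every animal of the strain. C3H is known for the retinal degeneration allele of Pde6b, for an insertion in the AMPA receptor gene Gria4 that causes absence seizures in some C3H substrains, for low beta-glucuronidase (Gusb) and, in C3H/HeJ, for a defective Toll-like receptor 4 (Tlr4). Expression in young cortex also changes with age, because myelin is still being formed in the weeks after birth.

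The tissue label was borne out by markers of cortical neurons. Slc17a7, the vesicular glutamate transporter of cortical excitatory neurons, had a log2 signal of 11.31, 11.24 and 11.31 in C3H PBS mice, against 11.03 to 11.43 with a median of 11.28 in the 9 others. Tbr1, a transcription factor of deep cortical layers, had 7.94, 8.06 and 7.83 in C3H PBS mice, against 7.79 to 8.15 with a median of 8.04. Ttr, which marks choroid plexus, lay between 4.15 and 4.88 in C3H PBS mice, near the array medians of 4.14 to 4.21, and reached 7.63 on 1 array of the others. Xist, which is transcribed from the inactive X of females, lay between 3.26 and 3.28 in C3H PBS mice and between 3.26 and 3.48 in the others, as the male label requires. Arrays of C3H PBS mice correlated with each other at 0.9961 to 0.9968 (Pearson, across the probe sets tested), and with arrays of SV129, FVB and C57 at 0.9902 to 0.9947.

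C3H cortex differed from the mean of the other strains at 499 probe sets, 2.12% of those tested, at an adjusted p under 0.05 in limma (Benjamini-Hochberg over all 23521). Of these, 242 were higher in C3H (1.03%) and 257 lower (1.09%). The differences were mostly modest, with a median size of 0.45 on the log2 scale among the higher and 0.53 among the lower, and 18 higher and 31 lower probe sets reached a log2 difference of 1. All 3 C3H arrays lay outside the range of the 9 others at 500 probe sets (2.13%), above it at 282 (1.2%) and below it at 218 (0.927%). Both criteria together held for 240 probe sets (1.02%), 130 of them higher in C3H (0.553%) and 110 lower (0.468%). The count of 499 came to 212 without C3H PBS array 1, 256 without array 2 and 232 without array 3, and the count of 240 to 137, 175 and 157.

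C3H did not have the most calls of the 4 strains. The same contrast, each strain against the mean of the other 3, gave 720 probe sets for SV129 (3.06%), 707 for FVB (3.01%) and 2003 for C57 (8.52%). These contrasts share arrays, so the counts stand side by side and were not tested against each other. The SV129 count was 359 without SV129 PBS array 2, the FVB count 283 without FVB PBS array 2 and 373 without array 3, and the C57 count 1021, 1037 and 1262 without C57 PBS arrays 1, 2 and 3.

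A difference from the mean of 3 strains need not be a difference from each of them. C3H was therefore also set against each strain in turn, in contrasts that share the C3H arrays. It differed from SV129 at 438 probe sets (1.86%), with 177 higher (0.753%) and 261 lower (1.11%). It differed from FVB at 437 (1.86%), with 241 higher (1.02%) and 196 lower (0.833%), and from C57 at 1416 (6.02%), with 636 higher (2.7%) and 780 lower (3.32%). At 70 probe sets (0.298%) C3H differed from all 3 strains in the same direction, 39 higher (0.166%) and 31 lower (0.132%); this count was 45 without C3H PBS array 1 and 42 without array 3. Of the 499, another 219 differed from 2 of the 3 strains, 205 from 1 and 5 from none. C57 was the strain most often concerned, since 130 of the 205 differed from C57 alone, 40 from SV129 alone and 35 from FVB alone.

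**Figure D1:**
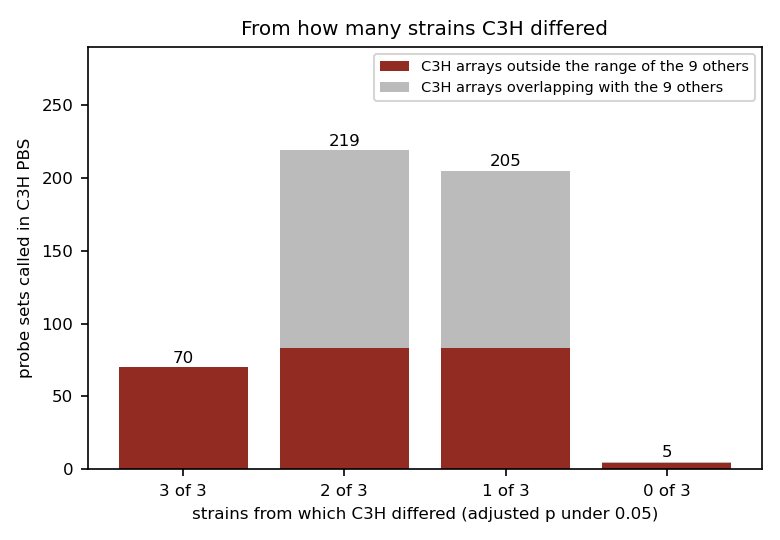
Number of probe sets called in C3H PBS mice against the mean of the other strains (y axis), by the number of strains from which C3H differed when each was tested separately (x axis). Dark bars are probe sets whose 3 C3H arrays lay outside the range of the 9 others, grey bars those that overlapped: all 70 that differed from each strain lay outside, against 83 of 219 and 83 of 205 that differed from 2 strains and from 1.

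The 12 largest rises among named genes outside the range of the other arrays spanned log2 differences of 0.96 to 2.92, and 11 of the 12 differed from each strain separately. They included genes of membrane shape, peptide transport, apoptosis and the extracellular matrix, and 2 Y-linked genes. Baiap2l1, an I-BAR protein that couples membrane curvature to actin, had a log2 signal of 6.28, 6.82 and 6.94 in C3H PBS mice, against 3.66 to 3.89 with a median of 3.76 in the 9 others. All 3 C3H arrays were far above the other strains, whose 9 arrays lay close together. The difference was 2.92 ± 0.11 (SE; 7.58-fold; limma adjusted p = 5.3e-09).

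**Figure D2:**
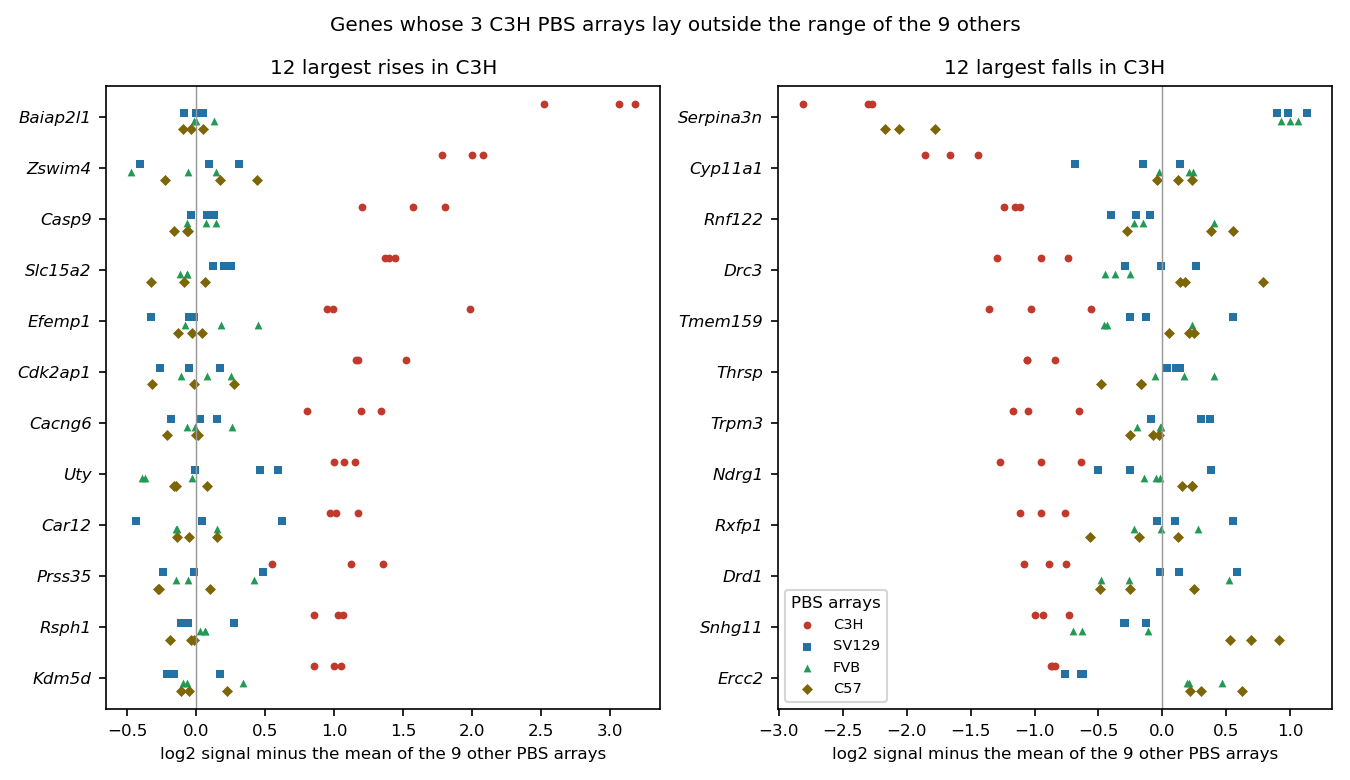
Log2 signal on each of the 12 PBS arrays minus the mean of the 9 non-C3H arrays (x axis) for the 12 named genes with the largest rises (left) and falls (right), each point 1 array. The genes were chosen for lying outside the range, so the 3 C3H points stand apart in each by construction; the gap to the nearest other array was 2.39 in Baiap2l1, 0.07 in Prss35, 0.10 in Serpina3n and Tmem159, 0.08 in Ercc2 and 0.04 in Snhg11.

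Zswim4, a zinc-finger protein of the SWIM family, had 7.83, 7.91 and 7.61 in C3H PBS mice, against 5.36 to 6.27 with a median of 5.92 in the others. Its difference was 1.96 ± 0.17 (limma adjusted p = 2.6e-05). Casp9, the initiator caspase of the mitochondrial route of apoptosis, had 6.45, 5.85 and 6.22, against 4.49 to 4.79 with a median of 4.61. Neither gene's C3H arrays came within 1 log2 unit of another strain's array. The difference of Casp9 was 1.52 ± 0.10 (adjusted p = 2e-06), a 2.87-fold higher level in C3H.

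Slc15a2, the peptide transporter PEPT2, which takes up small peptides into astrocytes and choroid plexus, had 9.04, 9.0 and 8.97 in C3H PBS mice, against 7.27 to 7.85 with a median of 7.53 in the others. All 3 C3H arrays lay more than 1 log2 unit above the highest other array, and the difference was 1.41 ± 0.07 (limma adjusted p = 1.7e-07). Efemp1, the extracellular matrix protein fibulin-3, had 6.05, 6.01 and 7.04, against 4.73 to 5.51 with a median of 5.03, a difference of 1.30 ± 0.18 (adjusted p = 0.0018). Here 1 C3H array was well above its replicates, and all 3 were above every other strain. Cdk2ap1, an inhibitor of the cell-cycle kinase Cdk2, had 8.42, 8.77 and 8.41, against 6.93 to 7.52 with a median of 7.23. Its other, dimmer probe set did not differ (0.01, adjusted p = 0.99), so the rise of 1.28 ± 0.13 (adjusted p = 0.00012) belongs to 1 of its 2 probe sets. Whether that probe set reads Cdk2ap1 itself or a copy of it elsewhere was not tested.

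The remaining rises were smaller and mostly in dim probe sets. Cacng6, a gamma subunit of voltage-gated calcium channels, differed by 1.11 ± 0.11 (limma adjusted p = 0.00012) and Rsph1, a component of the radial spokes of motile cilia, by 0.98 ± 0.08 (adjusted p = 2.2e-05). Car12, a membrane-bound carbonic anhydrase, had 5.49, 5.69 and 5.53 in C3H PBS mice, against 4.08 to 5.14 with a median of 4.47 in the others (1.05 ± 0.16, adjusted p = 0.0036). Prss35, a protease-like protein, differed by 1.01 ± 0.18 (adjusted p = 0.01) with a gap of 0.07 to the nearest array. It was the rise that did not hold against each strain: against SV129 and against FVB the adjusted p was 0.053, and without C3H PBS array 1 or 3 its overall call was lost (0.079 and 0.089).

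Uty, Kdm5d and Eif2s3y, genes of the Y chromosome, were higher in C3H males, where 1.03% of all probe sets were; Eif2s3y was chosen after its values were seen, so no count of Y-linked genes is drawn from them. Uty, a paralogue of the histone demethylase Kdm6a, had 8.67, 8.82 and 8.74 in C3H PBS mice, against 7.28 to 8.26 with a median of 7.64 in the others (1.07 ± 0.12, limma adjusted p = 0.00023). Kdm5d, a histone H3K4 demethylase, had 7.20, 7.40 and 7.35, against 6.14 to 6.69 with a median of 6.28 (0.96 ± 0.11, adjusted p = 0.0004). Eif2s3y, a subunit of translation initiation factor 2, had 7.98, 7.96 and 8.14, against 7.11 to 7.54 with a median of 7.32 (0.70 ± 0.08, adjusted p = 0.00053). For all 3 genes no C3H array overlapped another strain, and each gene differed from each strain. Kdm5c and Kdm6a, the X-linked partners of Kdm5d and Uty, did not pass the test, with differences of 0.00 and 0.09. The X-linked gene Ddx3x, which is not a partner of these 3 genes, did not pass either (-0.12). The Y-linked genes Usp9y, Zfy2 and Sry did not pass either, with differences of -0.14, -0.14 and -0.02, and were dim in every strain (group means 3.42 to 4.22).

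Other genes that differed from each strain, chosen after their values were seen, included receptors and enzymes. Hccs, the X-linked enzyme that attaches haem to cytochrome c, had 9.80, 9.88 and 9.70 in C3H PBS mice, against 8.75 to 9.14 with a median of 8.84 in the others (0.91 ± 0.07, limma adjusted p = 7.9e-06). Chrnb3, a beta subunit of nicotinic acetylcholine receptors, was higher by 0.95 ± 0.09 (adjusted p = 1e-04). Crhbp, which binds and buffers the stress peptide corticotropin-releasing hormone, was higher by 0.51 ± 0.08 (adjusted p = 0.0036), and Grk5, a kinase that desensitises G-protein-coupled receptors, by 0.66 ± 0.09 (adjusted p = 0.0018). In all 4 the C3H arrays lay above the 9 others.

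The 12 largest falls among named genes outside the range spanned 0.86 to 2.46 on the log2 scale, and 6 of the 12 held against each strain. Cyp11a1, the side-chain cleavage enzyme that opens steroid synthesis from cholesterol, had a log2 signal of 6.42, 6.00 and 6.20 in C3H PBS mice, against 7.18 to 8.10 with a median of 7.98 in the others. The highest C3H array was 0.76 below the lowest other array, and the gene was lower than in SV129, FVB and C57 (by -1.42, -1.79 and -1.75). The difference from their mean was -1.66 ± 0.14 (SE; limma adjusted p = 2.6e-05), and its other probe set gave -1.58 (adjusted p = 0.00023).

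Rnf122, a membrane-bound ubiquitin ligase, had 6.53, 6.57 and 6.44 in C3H PBS mice, against 7.28 to 8.23 with a median of 7.53 in the others (-1.17 ± 0.16, limma adjusted p = 0.0015). Thrsp, a regulator of fatty acid synthesis induced by thyroid hormone, had 6.27, 6.49 and 6.27, against 6.85 to 7.73 with a median of 7.37 (-0.99 ± 0.10, adjusted p = 0.00011). Both were lower than in every strain with no overlap. Trpm3, a cation channel gated by heat and by the neurosteroid pregnenolone sulphate, had 7.06, 7.46 and 6.94, against 7.86 to 8.48 with a median of 8.08 (-0.96 ± 0.11, adjusted p = 0.00058). Rxfp1, the receptor for relaxin, had 6.16, 6.00 and 6.35, against 6.54 to 7.66 with a median of 7.10 (-0.94 ± 0.15, adjusted p = 0.0055). Ndrg1, a stress-induced gene also made by myelinating cells, differed by -0.96 ± 0.15 (adjusted p = 0.0048), while its other, dimmer probe set did not pass (-0.13, adjusted p = 0.73).

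Among falls chosen after their values were seen, Vps41, a subunit of the HOPS complex that fuses late endosomes with lysosomes, combined a high signal with a tight difference. It had 10.10, 10.18 and 10.15 in C3H PBS mice, against 10.82 to 11.08 in the others (-0.84 ± 0.06, limma adjusted p = 3e-06). Adgrb1, an adhesion receptor for phosphatidylserine on synapses and phagocytes, differed by -0.77 ± 0.11 (adjusted p = 0.0018). Plat, tissue plasminogen activator, and Elovl7, a fatty acid elongase, both differed by -0.74 ± 0.11 (adjusted p = 0.0034). All 4 were lower than in each strain.

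The other falls of the 12 set C3H apart from only some strains. Serpina3n, a secreted protease inhibitor and a marker of reactive astrocytes, had 6.34, 6.31 and 5.80 in C3H PBS mice. It had 9.74, 9.59 and 9.51 in SV129, 9.61, 9.54 and 9.67 in FVB, and 6.44, 6.55 and 6.83 in C57. C3H was thus the lowest group without overlap, with C57 close above it and SV129 and FVB far higher on every array. The difference from the mean of the others was -2.46 ± 0.11 (limma adjusted p = 5.3e-08), but that from C57 was -0.46 ± 0.14 (adjusted p = 0.073).

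Ercc2, a helicase of DNA repair and transcription, had 4.82, 4.84 and 4.81 in C3H PBS mice, against 4.92 to 6.30 with a median of 5.89 in the others (-0.86 ± 0.09, limma adjusted p = 0.00012). SV129 lay next to C3H (-0.18, adjusted p = 0.55), with FVB and C57 more than 1 log2 unit higher. Drc3, of the dynein regulatory complex of motile cilia (-0.99 ± 0.15, adjusted p = 0.0034), and Snhg11, a long noncoding RNA of neurons (-0.88 ± 0.12, adjusted p = 0.0013), did not pass against FVB (0.12 and 0.23). The other, dimmer probe set of Snhg11 did not pass (-0.52, adjusted p = 0.13). Tmem159, also called promethin, a lipid droplet protein, differed by -0.99 ± 0.19 (adjusted p = 0.018), a call that was lost without C3H PBS array 1 (0.1) or array 3 (0.13). Drd1, the D1 dopamine receptor, had 4.46, 4.60 and 4.27, against 4.86 to 5.93 with a median of 5.33 (-0.90 ± 0.20, adjusted p = 0.032). Its call was lost without any of the C3H arrays (adjusted p = 0.14, 0.089 and 0.18) and without C57 PBS array 2 (0.054). The striatum list to which it belongs had 13 measured members, of which no other passed (7.69% called, against 2.11% of all genes), and a median difference of -0.05.

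Among called genes whose C3H arrays overlapped the others, C3H often shared its level with another strain. Gm3893, a predicted gene chosen after its values were seen, had 3.93, 4.14 and 3.94 in C3H PBS mice. It had 3.91, 3.77 and 3.67 in SV129, 9.48, 9.63 and 9.50 in FVB, and 10.79, 10.88 and 10.79 in C57. C3H and SV129 lay at the lower end of the scale, while FVB and C57 were bright on every array; the difference from the mean was -4.04 ± 0.07 (limma adjusted p = 5.9e-13) and that from SV129 0.22 (adjusted p = 0.31). Fam205a2, a neighbour of Gm3893 in the reference assembly, showed a like order, with 4.66, 4.71 and 4.84 in C3H, against 4.47 to 4.82 in SV129, 6.00 to 6.48 in FVB and 7.92 to 8.14 in C57. All 5 of its probe sets were lower in C3H than the mean (-1.11 to -1.59), and pairs of them gave the same difference, so they are not separate measurements.

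Etnppl, a phospholyase of phosphoethanolamine made in astrocytes, had 3.86, 3.87 and 3.81 in C3H PBS mice, against 3.74 to 4.60 in SV129 and FVB and 7.51, 7.32 and 6.26 in C57. The mean difference of -1.27 ± 0.23 (limma adjusted p = 0.01) was thus carried by C57 (-3.18), and it was lost without C3H PBS array 1, 2 or 3 (0.06, 0.052 and 0.062). Pappa2, a protease that frees insulin-like growth factors, spread widely in C3H, with 6.20, 4.53 and 5.63, against 3.40 to 5.18 with a median of 3.62 (1.56 ± 0.33, adjusted p = 0.027). Scnn1a, a subunit of the epithelial sodium channel that marks layer 4 neurons, had 3.95, 5.06 and 3.98, against 5.05 to 6.32 with a median of 5.49 (-1.27 ± 0.25, adjusted p = 0.021). The call of Pappa2 was lost without C3H PBS array 1 or 3 (0.18 and 0.15) or C57 PBS array 2 (0.05 after rounding), and that of Scnn1a without C3H PBS array 1 or 3 (0.15 each).

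The C3H difference was measured again in CBE mice, which share no array with the PBS comparison. Across the 12 CBE arrays 408 probe sets passed (1.73%), 248 higher (1.05%) and 160 lower (0.68%), or 218 without C3H CBE array 3. Of the 499 probe sets called in PBS mice, 483 (96.8%) had the same sign in CBE mice and 217 (43.5%) were called in the same direction, with none called in the opposite direction. Among the 23022 not called in PBS mice, 61.2% had the same sign and 0.764% were called in the same direction. Of the 70 that differed from each strain, all 70 had the same sign, 52 (74.3%) were called again and 47 (67.1%) lay outside the range of the 9 other CBE arrays too. C3H CBE array 1 stood apart from its replicates, with a mean signal of 7.76 over 19 reactive microglia genes against 6.29 and 6.17 on the other C3H CBE arrays. Without it, 177 of the 499 and 46 of the 70 were called again; without C3H CBE array 2 these were 159 and 42, and without array 3 they were 137 and 40.

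**Figure D3:**
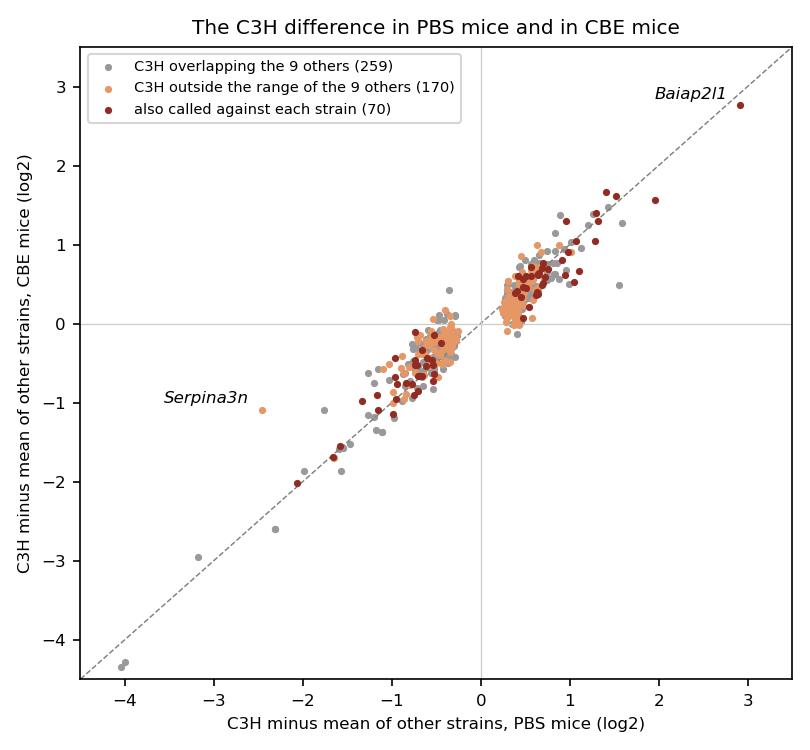
Log2 difference of C3H from the mean of the other strains in CBE mice (y axis) against the same difference in PBS mice (x axis), 1 point for each of the 499 probe sets called in PBS mice; the dashed line marks equal differences. Of all points, 483 have the same sign on both axes; Baiap2l1 lies near the line at 2.92 and 2.76, and Serpina3n lies off it at -2.46 and -1.09.

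Of the 12 largest named rises, 11 were called again in CBE mice and 11 lay outside the range again; of the 12 falls, 7 and 5 did. Without C3H CBE array 1, 8 of the 81 named genes lost their call in CBE mice, namely Prss35, Rxfp1, Drd1, Gria4, Kcnk1, Gaa, Npas2 and Zfp39 (adjusted p = 0.052 to 0.18), and 3 gained one, namely Serpina3n, Bst2 and B2m. Baiap2l1 had 6.39, 6.56 and 6.61 in C3H CBE mice, against 3.56 to 3.90 in the other CBE mice, a difference of 2.76 ± 0.07 (limma adjusted p = 1.5e-10). Cyp11a1 had 5.90, 6.48 and 6.25 in C3H CBE mice, against 7.45 to 8.17 (-1.69 ± 0.13, adjusted p = 1.3e-05). Serpina3n did not repeat: C3H CBE mice had 10.32, 7.07 and 7.14, against 7.82 to 9.81 in the other CBE mice (-1.09 ± 0.51, adjusted p = 0.41). Its highest value was on C3H CBE array 1, and without that array the difference was -2.17 ± 0.16 (adjusted p = 2.4e-05).

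The difference between the C3H contrast in CBE mice and that in PBS mice was tested across all 24 arrays. No probe set passed in limma (0%), whereas 951 had an unadjusted p under 0.05 (4.04%), and the count was 0 in each of the alternatives run. This does not show that the C3H difference was equal under both agents, since the median standard error of this contrast was 0.11.

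Genes with alleles known in C3H were examined next. Of 10 measured members of that list, 2 passed the test and both were higher, against 2.11% of all genes, and the median difference was 0.01. Gria4, an AMPA receptor subunit, had 10.24, 10.29 and 10.26 in C3H PBS mice, against 9.79 to 10.03 with a median of 9.96 in the others. The C3H arrays were all above the rest by a small margin, a difference of 0.32 ± 0.06 (limma adjusted p = 0.012), and in CBE mice the difference was 0.32 ± 0.07 (adjusted p = 0.031), or 0.35 (0.06) without C3H CBE array 1. The call in PBS mice was lost without C3H PBS array 1, 2 or 3 (0.058, 0.073 and 0.065), and it did not pass against FVB alone (0.063).

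Glo1, which detoxifies methylglyoxal and varies in copy number among inbred strains, had 9.67, 9.56 and 9.81 in C3H PBS mice. It had 9.82, 9.87 and 9.70 in SV129, 8.68, 8.65 and 8.63 in FVB, and 8.75, 8.57 and 8.89 in C57. C3H and SV129 formed a high pair and FVB and C57 a low pair, with no overlap between the pairs: C3H differed from FVB by 1.03 (limma adjusted p = 4.5e-05) and from C57 by 0.94 (5.2e-05), but not from SV129 (-0.11, 0.71). Tlr4 had 3.93, 4.12 and 3.88 in C3H PBS mice, against 3.68 to 4.08 (0.04, adjusted p = 0.92). It was dim in every PBS mouse, below the array medians of 4.14 to 4.21, so a difference could be hidden. Gusb had 6.03, 5.69 and 5.84, against 5.75 to 6.06 (-0.07, adjusted p = 0.85). Pde6b, a phosphodiesterase of rod photoreceptors, was dim in every PBS mouse at 3.33 to 3.58. H2-K1, an MHC class I heavy chain, did not pass (-0.54, adjusted p = 0.23) but did without SV129 PBS array 2 (-0.64, adjusted p = 0.025). The melatonin synthesis genes Aanat and Asmt, whose alleles in C3H are intact, had differences of -0.08 and -0.03 in a tissue that is not their main site. Of 13 measured genes with alleles known in the other strains none passed, where 2.11% of all genes did. Among them were Nnt, the mitochondrial transhydrogenase (-0.21, adjusted p = 0.24), and Mmrn1, a platelet protein (0.03, adjusted p = 0.92). Mmrn1 was dim in every PBS mouse at 3.44 to 3.76. The 24 measured genes of Toll-like receptor signalling had no call and a median of -0.01. Lists of these sizes would hold few calls at the share of all genes.

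Genes of myelin, the sheath that oligodendrocytes wrap around axons, all lay on the lower side in C3H. The 17 measured genes of the list had differences below 0, with a median difference of -0.70 against 0.01 over all genes, and 4 passed the test, all lower (23.5% against 2.11% of all genes). Mog, a glycoprotein of the outermost myelin layer, had 7.57, 7.60 and 6.56 in C3H PBS mice, against 7.39 to 9.04 with a median of 8.61 in the others (-1.20 ± 0.25, limma adjusted p = 0.023). Tspan2, a tetraspanin of oligodendrocytes, had 9.63, 9.81 and 9.30, against 9.86 to 10.52 with a median of 10.13 (-0.58 ± 0.10, adjusted p = 0.0081). Only Tspan2 of the 4 lay outside the range of the 9 others. Mag, an adhesion molecule of the inner myelin face, and Cldn11, the tight-junction protein of myelin, differed by -1.03 ± 0.24 (adjusted p = 0.048) and -0.87 ± 0.19 (adjusted p = 0.034). In bulk RNA, fewer oligodendrocytes and less myelin RNA per oligodendrocyte cannot be told apart.

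The myelin values differed by strain and by array. The mean signal over the 17 genes was 7.67, 7.78 and 7.09 in C3H PBS mice, 8.08, 7.58 and 7.92 in SV129, 8.66, 8.35 and 8.37 in FVB, and 8.46, 8.26 and 7.71 in C57. C3H overlapped SV129 and C57, and 1 of its own arrays was the lowest of the 12. Against FVB 6 of the 17 genes passed with a median of -0.91, against C57 5 with a median of -0.65, and against SV129 0 with a median of -0.34. Without C3H PBS array 3 the 17 genes stayed below 0 with a median of -0.44, but none passed, with adjusted p of 0.15 for Mog, 0.24 for Mag, 0.21 for Cldn11 and 0.051 for Tspan2. Mog also lost its call without C3H PBS array 1 (0.055), Mag without any of 9 arrays and Cldn11 without any of 7 (highest adjusted p 0.24 and 0.21). With all probe sets of the table tested, Tspan2 alone of the 4 kept its call (0.062 for Mog, 0.11 for Mag and 0.084 for Cldn11). In CBE mice all 17 genes again lay below 0 with a median of -0.40, and 0 passed. Whether the part of the brain in each slice moved with these values was not tested. The 12 genes of oligodendrocyte precursors had no call and a median of -0.08. Those of thalamus, which lies beneath the cortex, had a median of -0.07 with 1 call in 13 (7.69%), where 2.11% of all genes were called.

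**Figure D4:**
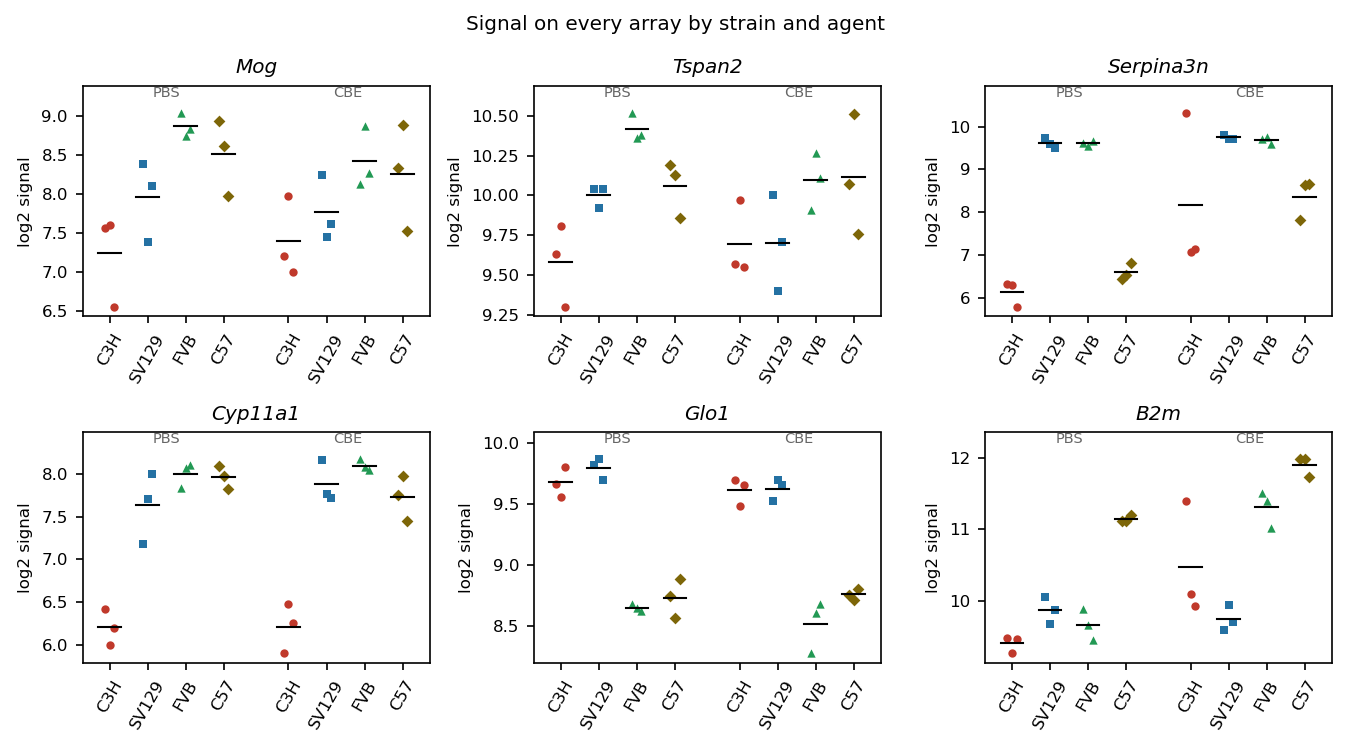
Log2 signal (y axis) of 6 genes on every array by strain, PBS mice left and CBE mice right in each panel; points are arrays and lines are group means of 3. Cyp11a1 was low in C3H under both agents, Glo1 was high in C3H and SV129, B2m was lowest in C3H and highest in C57 among PBS mice, Mog and Tspan2 were lowest in C3H PBS mice with spread between arrays, and Serpina3n was low in C3H and C57 PBS mice and reached 10.32 on 1 C3H CBE array.

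Lists of neuronal signalling genes held single calls, 4 in all, where 2.11% of all genes were called. Among 18 AMPA and kainate receptor genes Gria4 was called (5.56%), and among 12 NMDA and metabotropic glutamate receptor genes and 21 sodium and calcium channel genes there was none. Of 15 GABA receptor and synthesis genes 1 was called (6.67%), Gabra3, the alpha3 subunit of GABA-A receptors (0.28 ± 0.06, limma adjusted p = 0.03). Of 24 potassium channel genes 2 were called (8.33%): Kcna4, a Shaker-type channel, was higher (0.29 ± 0.07, adjusted p = 0.041) and Kcnk1, a 2-pore leak channel, lower. The other, dimmer probe set of Kcna4 did not pass (0.12, adjusted p = 0.62). Set against each strain, the called probe set of Kcna4 passed against C57 alone (0.51), with 0.08 from FVB. Gabra3 passed against SV129 alone (0.44). Kcnk1 had 9.98, 9.96 and 9.95 in C3H PBS mice, against 10.19 to 10.51 with a median of 10.26 in the others (-0.34 ± 0.05, adjusted p = 0.0042), and kept its call without any array; Gabra3 lost it without any of 6 arrays and Kcna4 without any of 9 (adjusted p up to 0.2 and 0.18). Oprd1, the delta opioid receptor (0.59 ± 0.11, adjusted p = 0.018), and Cntn6, a neuronal adhesion molecule (-0.62 ± 0.09, adjusted p = 0.0021), were called and chosen after their values were seen. Oprd1 lost its call without C3H PBS array 2 or 3 (0.055 and 0.13).

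**Figure D5:**
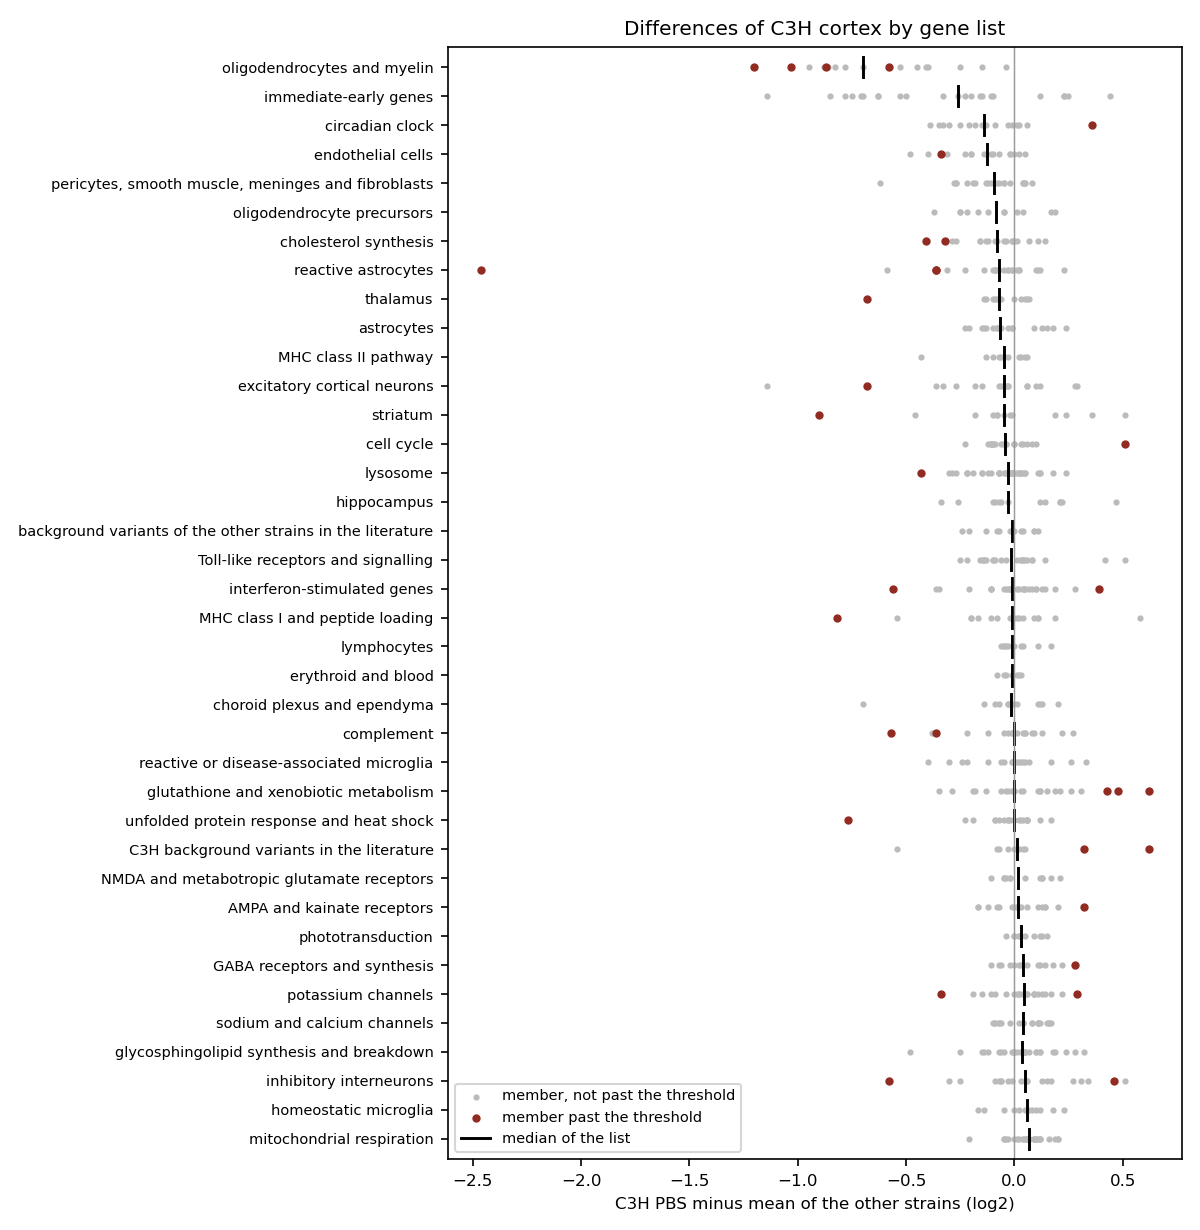
Log2 difference of C3H PBS mice from the mean of the other strains (x axis) for each measured gene of 38 lists (y axis), ordered by median; red points passed the test and black ticks are medians. The myelin list lies lowest with a median of -0.70, the immediate-early genes follow at -0.26 with no call, and the other medians lie between -0.14 and 0.07. In mean signal over the immediate-early genes, C3H PBS arrays overlapped those of SV129 and FVB.

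Markers of neuron classes showed single changes. Npy, neuropeptide Y of interneurons, had 10.32, 10.12 and 10.30 in C3H PBS mice, against 9.29 to 9.74 in SV129 and FVB and 10.31, 10.15 and 10.14 in C57 (0.46 ± 0.09, limma adjusted p = 0.018). Adarb2, an RNA-binding protein of caudally derived interneurons, had 6.38, 6.33 and 6.84, against 6.65 to 7.71 with a median of 6.99 (-0.58 ± 0.12, adjusted p = 0.019). C3H shared the level of Npy with C57, and Adarb2 set it apart chiefly from SV129 (-1.04, adjusted p = 0.0016). Both differences were measured again in CBE mice (0.45 and -0.55, adjusted p = 0.0048 and 0.012). Slc17a6, the vesicular glutamate transporter that is abundant in thalamus, had 7.68, 7.97 and 7.56, against 8.04 to 9.0 with a median of 8.33 (-0.68 ± 0.14, adjusted p = 0.025), but -0.14 in CBE mice. Without 1 array these calls were lost: Npy without C3H PBS array 1 or 3 (0.12 and 0.11), Adarb2 without array 1 or 2 (0.13 each), and Slc17a6 without array 1 or 3 (0.14 and 0.17). The 23 immediate-early genes, which neuronal activity induces, had no call, 18 differences below 0 and a median of -0.26. Nr4a2 had -1.14 (adjusted p = 0.3) and Fos -0.75 (0.24). The mean signal over the 23 was 6.81, 7.11 and 6.97 in C3H PBS mice and 6.95, 7.15 and 6.94 in FVB. It was 6.79, 7.37 and 7.56 in SV129 and 7.79, 7.79 and 7.25 in C57. C3H thus overlapped SV129 and FVB and lay below C57, and the median in CBE mice was -0.07.

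Of immune genes, B2m, Bst2 and C4b were lower in C3H, and set against each strain they passed against C57 alone. B2m, the light chain of MHC class I, had 9.48, 9.26 and 9.46 in C3H PBS mice, 10.05, 9.67 and 9.86 in SV129, 9.88, 9.65 and 9.45 in FVB, and 11.12, 11.12 and 11.20 in C57. C57 was more than 1 log2 unit above every other array, and C3H was lowest with slight overlap with FVB (-0.82 ± 0.09, limma adjusted p = 0.00042; against SV129 and FVB 0.072 and 0.38). In CBE mice the B2m difference was -0.51 (adjusted p = 0.41), or -0.97 (0.0026) without C3H CBE array 1. Bst2, an interferon-induced tether of viruses, had 4.0, 3.92 and 3.82 in C3H, against 3.73 to 4.05 in SV129 and FVB and 5.41, 5.56 and 6.05 in C57 (-0.56 ± 0.11, adjusted p = 0.021). C4b, a complement component, had 3.71, 3.61 and 3.82, against 3.81 to 4.26 in SV129 and FVB and 4.67, 5.07 and 4.46 in C57 (-0.57 ± 0.11, adjusted p = 0.021). Stat2, a transcription factor of the interferon response, was higher (0.39 ± 0.08, adjusted p = 0.024) and level with SV129 (0.00). Bst2 and C4b lost their calls without C3H PBS array 1, 2 or 3 (0.071, 0.09 and 0.13; 0.11, 0.13 and 0.062), and Stat2 without array 1 or 3 (0.17 and 0.088).

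Of 31 interferon-stimulated genes 1 was higher and 1 lower (6.45% called), and of 19 MHC class I genes 1 was lower (5.26%), against 2.11% of all genes. The 12 MHC class II genes, the 12 homeostatic and 19 reactive microglia genes and the 11 lymphocyte genes had no call, and lists of these sizes would hold few at the share of all genes. Of 25 reactive astrocyte genes 3 were lower (12%): Serpina3n, Lcn2, the iron-carrier protein lipocalin 2 (-0.36 ± 0.08, limma adjusted p = 0.036), and Serping1, the complement C1 inhibitor (-0.36 ± 0.08, adjusted p = 0.033), the last also 1 of 2 lower among 19 complement genes (10.5%). Lcn2 was dim on every PBS array (3.39 to 4.14) and, set against each strain, passed against C57 alone (-0.64, adjusted p = 0.0019). Serping1 was level with SV129 (-0.01) and passed against FVB and C57 (-0.61 and -0.45, adjusted p = 0.0047 and 0.015). Lcn2 lost its call without any of 8 arrays and Serping1 without any of 5 (adjusted p up to 0.19 and 0.2). Gfap, the intermediate filament of astrocytes, had 6.15, 6.25 and 6.49 in C3H PBS mice, against 5.23 to 6.85 (-0.14, adjusted p = 0.88), and the 18 astrocyte genes had no call.

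Genes of the pathway that CBE targets were counted as well. None of 30 glycosphingolipid genes passed, where 2.11% of all genes did, so the absence of a call is near the background, and their median was 0.04. Gba2, the non-lysosomal glucosylceramidase, had 8.82, 8.84 and 8.88 in C3H PBS mice, against 8.13 to 8.84 with a median of 8.73 in the others (0.24 ± 0.07, limma adjusted p = 0.11). Gba2 did pass without SV129 PBS array 3 (0.27, adjusted p = 0.049) and in the fit of all 24 arrays (adjusted p = 0.038), a fit in which 10 other named genes lost their calls, and against SV129 alone it was higher (0.55, adjusted p = 0.004). Of 44 lysosomal genes 1 was called (2.27%), Gaa, the acid alpha-glucosidase: it had 8.15, 8.33 and 8.16 in C3H, against 8.22 to 8.91 with a median of 8.70 (-0.43 ± 0.08, adjusted p = 0.012). C3H overlapped FVB for Gaa and lay below C57 (-0.69), the difference was -0.41 in CBE mice (adjusted p = 0.01; 0.06 without C3H CBE array 1), and the call in PBS mice was lost without C3H PBS array 1 or 3 (0.091 and 0.084).

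Metabolic lists held further calls, against 2.11% of all genes. Of 27 glutathione and xenobiotic genes 3 were higher (11.1%): Glo1, Gsr, glutathione reductase (0.43 ± 0.08, limma adjusted p = 0.016), and Aldh1a1, a retinal dehydrogenase (0.48 ± 0.10, adjusted p = 0.031). Gsr had 8.19, 8.04 and 8.09 in C3H PBS mice, against 8.16 to 8.40 in SV129 and 7.23 to 7.56 in FVB and C57, the same pairing of strains as Glo1, and it was higher in CBE mice too (0.72, adjusted p = 0.00054). Aldh1a1 separated C3H from FVB alone (1.62). Of 19 cholesterol synthesis genes 2 were lower (10.5%), Cyp51, the lanosterol demethylase (-0.41 ± 0.08, adjusted p = 0.019), and Insig1, the sterol-sensing retention protein (-0.32 ± 0.06, adjusted p = 0.018). Both had all C3H arrays just below the others, by 0.07 and 0.01. Set against each strain, Insig1 passed against C57 alone (-0.64), with -0.16 from SV129 and -0.15 from FVB. Cyp51 did not pass against C57 (-0.24, adjusted p = 0.21). Insig1 and Cyp51 lost their calls without C3H PBS array 1, 2 or 3 (0.056, 0.072 and 0.13; 0.066, 0.092 and 0.11), Gsr without array 1 or 3 (0.12 and 0.076) and at 0.05 after rounding without array 2, and Aldh1a1 without any of 6 arrays (up to 0.19).

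Alad, an enzyme of haem synthesis chosen after its values were seen, had 7.73, 7.66 and 7.40 in C3H PBS mice, against 6.49 to 7.32 with a median of 7.08 in the others (0.64 ± 0.08, limma adjusted p = 0.00077), with C57 lowest at 6.49 to 6.66. Hspa1b, an inducible heat shock protein 70, had 4.83, 4.96 and 5.07, against 4.76 to 5.78 in SV129 and C57 and 6.82, 6.39 and 6.62 in FVB (-0.77 ± 0.12, adjusted p = 0.0037). Both kept their calls without any array, and both were called in CBE mice (0.68 and -0.94, adjusted p = 0.0073 and 0.00045). Of 17 clock genes 1 was called (5.88%, against 2.11% of all genes), Npas2, a partner of Bmal1. It was higher (0.36 ± 0.08, adjusted p = 0.025) and level with C57 (0.05), while 13 of the 17 lay below 0 with a median of -0.14. The mean signal over the 17 was 8.05 to 8.16 in C3H PBS mice, 7.95 to 8.27 in SV129 and 8.03 to 8.09 in FVB. In C57 it was 8.41 to 8.48. Of 22 cell-cycle genes 1 was called (4.55%), Mcm6, of the replicative helicase. It was higher (0.51 ± 0.11, adjusted p = 0.026) but dim, at 4.39 to 4.85 in C3H PBS mice, and did not pass against C57 (0.22). Of the 22 genes, 16 lay below 0, with a median of -0.05. Of 16 endothelial genes 1 was called (6.25%), Abcb1a, a drug efflux pump. It was lower (-0.34 ± 0.08, adjusted p = 0.039) but did not pass against FVB (0.4). Npas2 lost its call without C3H PBS array 1, 2 or 3 (0.089, 0.15 and 0.099), Mcm6 without array 1 or 3 (0.18 and 0.16) or C57 PBS array 2 (0.052), and Abcb1a without any of 10 arrays (up to 0.23). The 29 mitochondrial respiration genes had no call and 24 differences above 0, with a median of 0.07. Lists of these sizes would hold few calls at the 2.11% of all genes.

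The place of called genes among their neighbours was counted from the reference annotation. Of 467 called genes that it places, 61 (13.1%) had a called neighbour, against 852 of 21659 genes not called (3.93%); overlapping transcripts are among them, and the difference was not tested. The longest run of called genes held 3, the ribosomal protein gene Rps3a1 and the small nucleolar RNAs Snord73a and Snord73b. Genes were placed by symbol, and whether the called Rps3a1 probe set reads that locus was not tested. Rps3a1 had 10.21, 9.87 and 9.77 in C3H PBS mice, against 9.77 to 10.36 in SV129 and 8.02 to 9.20 in FVB and C57 (0.84 ± 0.16, limma adjusted p = 0.013), while Snord73b averaged 6.00 in C3H, 6.68 in SV129, 8.09 in FVB and 8.54 in C57 (-1.76, adjusted p = 0.00063) and Snord73a differed by -0.77 (0.006). Rps3a1 lost its call without C3H PBS array 1 or 2 (0.11 and 0.051), and its other, dim probe set did not differ (0.03, adjusted p = 0.96). Ribosomal protein genes have near-identical copies that an array may not separate. The other 29 runs were pairs, and the 2 named here came earliest in alphabetical order among these ties. Of their genes, Zfp39, a zinc-finger gene, was higher than the mean of the others (0.31, adjusted p = 0.047). Alg3, a mannosyltransferase, and Camk2n2, an inhibitor of CaM kinase II, were lower than that mean (-0.31 and -0.53, adjusted p = 0.042 each). Each of these 3 calls was lost without any of 7 to 9 single arrays (adjusted p up to 0.23). Set against each strain, Zfp39 passed against SV129 alone (0.64) and Alg3 and Camk2n2 against C57 alone (-0.94 and -0.57). Alg3 was level with SV129 and FVB (-0.04 and 0.05). The other, dimmer probe set of Zfp39 did not pass (0.35, adjusted p = 0.33).

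Small RNAs were counted by kind. Of 82 probe sets for small nucleolar or Cajal body RNAs, 10 passed (12.2%), 2 higher and 8 lower in C3H, where 2.12% of all probe sets passed and 1.09% were lower. Of 511 for microRNAs 12 passed (2.35%), a share near the 2.12% of all probe sets. All 12 were lower, where 1.09% of all probe sets were lower. Among them were the neighbours Mir544 and Mir382, Mir654 and Mir376b, and Mir341 beside Rian, which was also called lower. The calls are thus not all at separate loci, and how many loci the 12 stand for was not tested. Of 3061 predicted genes and clones 51 passed (1.67%), and of 1405 olfactory and vomeronasal receptors 1 did (0.0712%). The labelling kit primes whole transcripts, and how well it captures RNAs of this length was not tested.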

How the data were processed

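The deposited values are log2 signals, 1 per probe set and array, made by the authors with Partek and RMA (robust multi-array average) per the submitters' processing notes; the sources used here give neither versions nor a genome build. Per the labels' protocols, total RNA was labelled with the GeneChip WT PLUS kit. That the logarithm has base 2 was read from the range of the values. Scanner files were not used here, so background and depth per probe could not be judged, and how probes match the genome of each strain was not tested. Of 41034 probe sets, 23521 had 1 symbol in the platform annotation, 1814 several and 15699 none given; they stood for 22180 genes, of which 1082 had several probe sets, and lists and names used the brightest. RefSeq gene tables (GRCm38.p6) served for gene order alone.

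The 12 PBS arrays were fitted in limma 3.58.1 (R 4.3.3) with 1 mean per group and no filter, and variances were moderated (residual degrees of freedom 8, prior 5.01; median standard error 0.079). Tests were two-sided with Benjamini-Hochberg adjustment over all 23521 and a threshold of 0.05; "called" means past it. The 12 CBE arrays were fitted alike, and all 24 for the change of the C3H difference. An exact permutation test of 3 against 9 arrays, with the p of 1 side doubled, cannot go below p = 0.00909. On simulated data with 23521 probe sets the fit recovered 49 of 67 changes of 0.5, 67 of 67 of 1 and 66 of 66 of 2, with 12 false among 194 calls. The median difference of all probe sets was 0.0054.

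The members, the 38 lists (790 entries, 712 measured) and the tests were chosen with earlier results of these data known. By rule, named genes were the 12 largest rises and falls called and outside the range of the 9 others, the 4 largest called differences that overlapped, up to 4 called members of each list, members of the 3 longest runs of called neighbours (ties in alphabetical order), and 13 genes always named, of which 11 were analysed here, with up to 6 whose difference changed under CBE, of which none passed; 68 genes resulted, and 13 more were chosen after their values were seen. Predicted genes, small RNAs and receptor families were left out of the rule. Replicate numbers were not treated as pairs in the main fit. Deviations of same-numbered PBS arrays correlated at -0.18 to 0.17 over 18 pairs (median 0.04, 5 over 0.1). Those of differently numbered arrays correlated at -0.18 to 0.24 over 36 pairs (median -0.03, 4 over 0.1). A weak link between same-numbered arrays is thus not excluded. No 2 arrays were duplicates. Alternatives covered the probe sets tested, scaling, variance model, replicate block and each array left out.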

Additional observations from a re-analysis of the deposited data

How the results depend on the processing

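Counts of calls held within 1.5 times when all 24 arrays, all probe sets, 1 probe set a gene, brighter probe sets, quantile normalization, centring on array medians or an intensity trend were used, and the median of all probe sets moved to at most 0.014. An ordinary linear model without moderation gave fewer calls: 184 for C3H in PBS mice, 112 also outside the range, 33 against each strain, 181 in CBE mice, 363 for SV129 and 333 for FVB. Leaving out 1 array gave 212 to 601 calls for C3H in PBS mice, 137 to 328 outside the range, 42 to 76 against each strain, 218 to 375 in CBE mice and 137 to 177 of the PBS calls called again in CBE mice. It gave 359 to 741 calls for SV129, 283 to 1044 for FVB and 1021 to 2105 for C57, and 0 for the change of the C3H difference between agents. Setting C3H against SV129 and FVB alone, chosen after seeing the data, gave 304 calls, 249 of them among the 499 in the same direction. With the replicate block, although the labels do not say that the numbers pair arrays, there were 464 calls, 214 outside the range and 68 against each strain. Of 81 named genes, 72 were called; 31 kept their call in all 21 settings, and 41 lost it in at least 1. Directions turned for 4 genes that were not called and lay near 0. Pde6b had -0.0001371 after quantile normalization and -0.01125 to 0.02728 with 1 array left out, below 0 without SV129 PBS array 3 (-0.007996), FVB PBS arrays 1 and 3 (-0.01125 and -0.001903), C57 PBS arrays 1 and 2 (-0.002817 and -0.003484) and C3H PBS array 3 (-0.007111). With 1 array left out, Gfap had -0.2584 to 6.111e-05, Tlr4 -0.03379 to 0.0831 and Gusb -0.1565 to 0.01657. The ordinary model alone ended the calls of Car12, Drc3, Elovl7, Hspa1b, Ndrg1, Plat and Rxfp1 (adjusted p = 0.062, 0.058, 0.051, 0.056, 0.075, 0.051 and 0.077). In the fit of all 24 arrays 10 named genes lost their call, Abcb1a, Bst2, C4b, Camk2n2, Cyp51, Kcna4, Lcn2, Mag, Serping1 and Zfp39 (adjusted p = 0.054 to 0.87), and Gba2 gained one (0.038). With all probe sets of the table tested 21 lost it (0.052 to 0.11). The cause of these shifts was not tested, beyond the loss of an array itself. The number of arrays, 3 a strain, limits the precision, and dim probe sets can hide a difference.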
